A study of Mus musculus with 18 samples.

Results

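The nuclear genes that encode subunits of the mitochondrial respiratory chain were examined by RNA-Seq in the hypothalamus, pituitary and thyroid of WT and THRB K146Q mice. Members were chosen by gene symbol alone, as Nduf subunit genes, Sdha to Sdhd, Uqcr genes, Cyc1, Cycs, Cox4 to Cox8 genes and Atp5 genes without processed pseudogenes, which gave 86 of the 24054 genes in the tables. Of these, 36 belong to complex I, 4 to complex II, 9 to complex III, 19 to complex IV and 17 to complex V, and Cycs encodes cytochrome c. Ndufa4 was counted with complex IV, where its product is known to sit. Atp5s and Atp5sl carry the family name without being subunits of the enzyme and were kept under complex V by the rule.

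All 6 mice were males of strain C57BL/Ntac, 3 months old and untreated. WT mice 1, 2 and 43 were compared with mice 60, 62 and 83, which were homozygous for a whole-body knock-in that puts glutamine in place of a lysine in the zinc finger region of thyroid hormone receptor beta in every cell and every isoform of the receptor. The same mouse numbers recur in all 3 tissues and were read as the same animals, which gave 18 libraries in 6 groups of 3. The value of a gene is a count scaled to library size (CPM), and the libraries held 14902330 to 21230050 reads, so that 3 reads correspond to 0.133 to 0.190 CPM. The substitution itself does not show in a table of gene counts. Tissue identity was read from markers: neuron markers summed to 2648 to 2956 CPM in hypothalamus and 12.7 to 19.7 CPM in thyroid, pituitary hormone genes to 109975 to 256980 CPM in pituitary, and follicular cell markers to 86195 to 359158 CPM in thyroid.

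The respiratory chain lies in the inner mitochondrial membrane. Complex I takes electrons from NADH and complex II from succinate, complex III passes them to cytochrome c, complex IV hands them to oxygen, and complex V, the ATP synthase, uses the proton gradient to make ATP. Most subunits are nuclear genes transcribed in concert with the regulators NRF-1, GABP, YY1 and the estrogen-related receptors under coactivators of the PGC-1 family, whereas a small set comes from mitochondrial DNA. Thyroid hormone is known to raise respiration and mitochondrial content in many tissues. The mitochondrially encoded subunits are not analysed here.

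The members lie on 19 chromosomes, 3 of the 84 that could be located being on the X (GRCm38, GENCODE M21), and they are short genes by transcript: taking for each gene the median length of its coding transcripts, the median over 83 members was 742 bases, against 2717 bases over 13967 genes tested in thyroid. RefSeq promoters (GRCm38.p6, 250 bases before to 50 after the start) were at hand for 68 members. The background was every gene with such a promoter, expressed here or not, and was not matched for base content. The shares below were not tested. The NRF-1 letters GCGCATGC, read on both strands, occurred in 11 of them, 16.2% against 3.05% of the promoters of 27025 genes. For the GABP letters CCGGAAG these numbers were 16 members and 23.5% against 9.93%, for the YY1 letters AAGATGGC 9 members and 13.2% against 3.19%, and for the estrogen-related receptor letters AAGGTCA 8 members and 11.8% against 5.38%. The 200 bases before the start of 5 members that were lower in K146Q thyroid are given here 5′ to 3′. Sdhb (chr4:140961071-140961270, plus strand) and Cycs (chr6:50566570-50566769, minus strand) are subunits used in every tissue and were chosen as examples of the NRF-1 letters, Cox8a (chr19:7217617-7217816, minus strand) is the widely expressed form of its subunit, and Cox8b (chr7:140900447-140900646, minus strand) and Cox7a1 (chr7:30183971-30184170, plus strand) are forms of complex IV subunits known from muscle and brown fat. Capitals mark the NRF-1 letters, here in their reverse complement, which begin 54 bases before the RefSeq start of Sdhb and 60 bases before that of Cycs. GENCODE M21 starts Sdhb at 140961203 and Cox7a1 at 30184144, inside the stretches shown, and by it the letters of Sdhb lie within the gene. None of the 4 motifs lies wholly in the 200 bases shown of Cox8a, Cox8b and Cox7a1, which says nothing about binding there. In the longer promoter window that was counted, Cox8a and Sdhb hold the GABP letters, outside the stretches shown. Cox8b and Cox7a1 hold none of the 4 motifs in that window. Sdha, Sdhd, Ndufv1, Ndufv2, Uqcrfs1, Cox5a and Atp5b, all lower in K146Q thyroid, do not hold the NRF-1 letters in their promoter windows either.
Sdhb: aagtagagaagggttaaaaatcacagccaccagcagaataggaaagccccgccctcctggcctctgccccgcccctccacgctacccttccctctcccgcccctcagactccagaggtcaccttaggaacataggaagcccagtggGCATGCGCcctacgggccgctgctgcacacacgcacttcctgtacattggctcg
Cycs: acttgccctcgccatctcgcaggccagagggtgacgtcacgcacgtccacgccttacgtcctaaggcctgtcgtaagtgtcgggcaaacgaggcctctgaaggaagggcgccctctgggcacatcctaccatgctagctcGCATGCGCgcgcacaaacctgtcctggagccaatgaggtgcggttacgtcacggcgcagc
Cox8a: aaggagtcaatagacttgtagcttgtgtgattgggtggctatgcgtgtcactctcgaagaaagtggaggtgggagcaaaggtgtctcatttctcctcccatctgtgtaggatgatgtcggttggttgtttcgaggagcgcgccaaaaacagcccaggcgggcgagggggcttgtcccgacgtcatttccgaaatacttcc
Cox8b: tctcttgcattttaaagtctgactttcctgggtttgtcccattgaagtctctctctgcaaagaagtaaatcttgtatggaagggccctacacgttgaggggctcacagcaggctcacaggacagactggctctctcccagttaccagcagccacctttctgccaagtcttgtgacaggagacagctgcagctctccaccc
Cox7a1: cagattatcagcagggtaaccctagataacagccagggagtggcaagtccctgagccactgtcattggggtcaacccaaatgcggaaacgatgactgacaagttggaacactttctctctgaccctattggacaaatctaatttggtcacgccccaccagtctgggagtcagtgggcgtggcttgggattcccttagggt

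Levels in WT mice differed between the tissues. Summed over the members, WT thyroid held 10115, 10367 and 10684 CPM, WT hypothalamus 8038, 8348 and 7969 CPM, and WT pituitary 5180, 5590 and 5536 CPM. Per kilobase of transcript, the highest member in WT thyroid was Atp5b, the catalytic beta subunit of ATP synthase, at 535 ± 24.1 CPM per kb (SD, n = 3), ahead of Cox8a at 454 ± 10.4 CPM per kb, and these members also led in WT hypothalamus with 444 ± 17.5 and 359 ± 15.9 CPM per kb. In WT pituitary Cox8a came first at 238 ± 17.9 CPM per kb, and the levels of Atp5a1 (212 ± 0.669 CPM per kb) and Atp5b (206 ± 1.14 CPM per kb) followed. In the fit of all 18 libraries (limma, adjusted p under 0.05), 78 of 84 members were higher in WT thyroid than in WT pituitary, where 37.0% of 17140 genes were higher and 38.6% lower. The single lower member was Cox7a2l, at a log2 difference of -0.33. Against WT hypothalamus, 57 members were higher and 4 lower in WT thyroid (41.9% and 40.0% of all genes), and 6 were higher and 63 lower in WT pituitary (37.0% and 35.9%). With totals taken without the 10 highest genes of the tables, the median of all genes moved from 0.01 to 0.26 between WT pituitary and WT hypothalamus, and the counts there became 11 higher and 50 lower. The same totals moved that median from -0.03 to -0.28 between WT thyroid and WT pituitary, with 73 members higher and 3 lower.

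The tissue-restricted members set the thyroid apart. Cox8b stood at 35.4, 33.03 and 31.6 CPM in WT thyroid against 0.267, 0.172 and 0.171 CPM in WT pituitary and 0.119, 0.173 and 0.232 CPM in WT hypothalamus. Cox6a2, the muscle and heart form of its subunit, was read at 28.9, 43.1 and 51.8 CPM in WT thyroid, at 7.58, 7.80 and 7.08 CPM in WT hypothalamus and at 0.0890, 0 and 0.114 CPM in WT pituitary, the last all under 3 reads. Cox7a1 had 13.3, 18.03 and 14.9 CPM in WT thyroid and 0.570 to 1.68 CPM in the other WT libraries. Among members used in every tissue, the log2 difference between WT thyroid and WT pituitary was 2.39 for Cox5a (SE 0.0813), 2.32 for the complex I subunit Ndufb8 (SE 0.0725) and 1.84 for Cycs (SE 0.0851).

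No genotype difference was called for any member in the hypothalamus. Of 83 members tested, 0 were higher and 0 lower in K146Q mice (limma, adjusted p under 0.05), as was the case for 0% of 15761 genes in either direction. At an unadjusted p under 0.05, 1 member was higher and 0 lower, beside 2.39% and 1.70% of all genes, and edgeR and DESeq2 called 0 members. K146Q values lay above WT without overlap for 4 members and below for 3, beside 4.20% and 4.94% of all genes. Ndufc1, an accessory subunit of complex I, had the smallest p: WT values were 23.3, 21.2 and 22.2 CPM and K146Q values 25.8, 24.1 and 24.5 CPM, a log2 difference of 0.16 (SE 0.0665, adjusted p 0.998). Ndufa7 followed with -0.12 (SE 0.0547) and Uqcrc1, a core protein of complex III, with 0.07 (SE 0.0398), both at an adjusted p of 0.998. The median difference over the members was 0.02 against -0.00108 over all genes, with a range from -0.18 to 0.16. Cox7b2, Cox8b and Cox8c were under the filter of 0.5 CPM in 3 libraries.

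**Figure D1:**
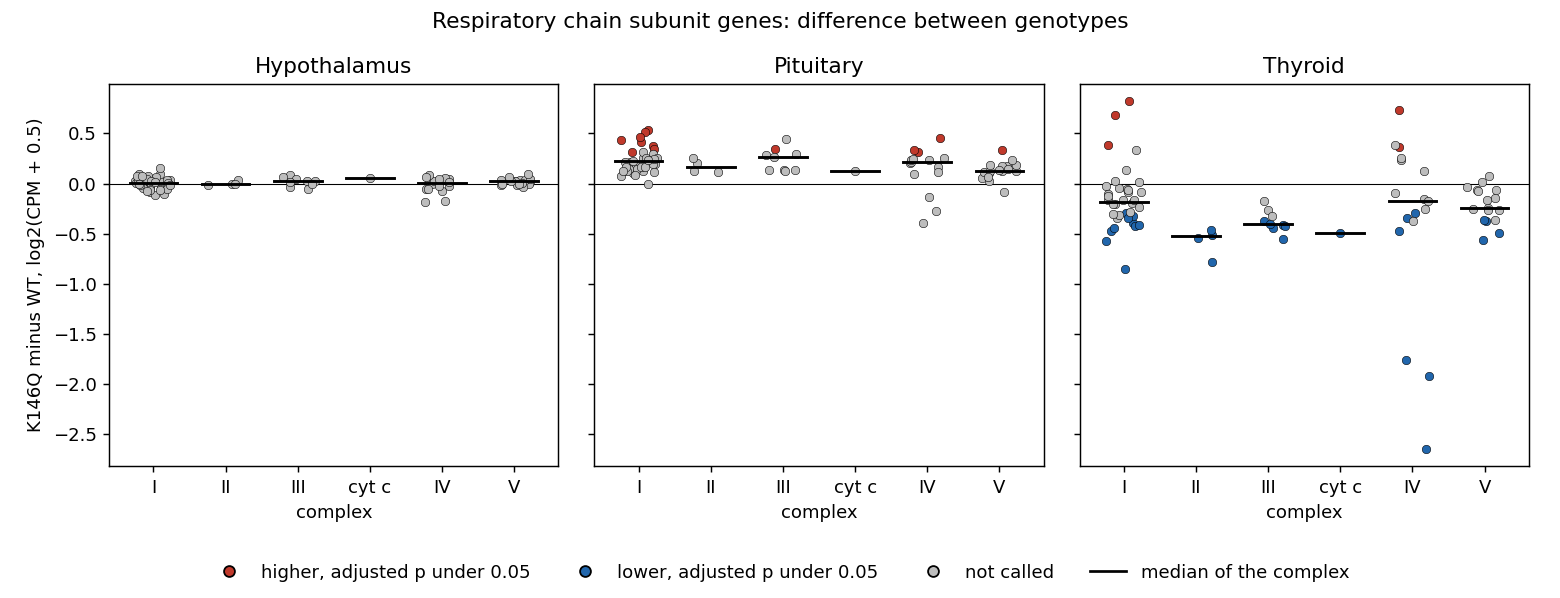
Difference between K146Q and WT mice, as log2(CPM + 0.5), for every member tested in hypothalamus (83), pituitary (82) and thyroid (84), grouped by complex on the horizontal axis; each point is 1 gene, coloured by its call, and the bar is the median of the complex. Hypothalamus members lie between -0.18 and 0.16, most pituitary members lie above 0, and most thyroid members lie below 0 where Cox8b, Cox6a2 and Cox7a1 of complex IV lie lowest.

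In the pituitary, the members called were all higher in K146Q mice, by small differences. Of 82 members tested, 14 were higher (17.1%) and 0 lower by limma, whereas 6.36% of 15589 genes were higher and 3.50% lower. At an unadjusted p under 0.05, 0 members were lower beside 11.3% of all genes, and edgeR and DESeq2 also called 0 lower. The median member difference was 0.19 on the log2 scale against -0.00875 over all genes, and 77 members had a positive and 5 a negative difference. K146Q values lay above all WT values for 57 members (16.7% of all genes did) and below them for 1, Cox6b2 (14.3% of all genes). The called members were 9 genes of complex I, 1 of complex III, 3 of complex IV and 1 of complex V, and none belonged to complex II. Cox6a2, Cox7b2, Cox8b and Cox8c were under the filter here. Summed over the members, K146Q pituitary held 6320, 6140 and 6082 CPM, above each of the WT sums given before, and the members' share of reads was 0.662 to 0.684% in K146Q and 0.537 to 0.593% in WT mice.

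Complex I carried most of these calls, all in accessory subunits that surround its catalytic core. Ndufa1, a membrane-arm subunit needed for assembly, rose from 33.4, 38.3 and 36.1 CPM in WT to 51.5, 52.4 and 52.4 CPM in K146Q mice. Its 3 K146Q values were within 1 CPM of each other and well above the WT values, with a log2 difference of 0.53 (SE 0.0801, adjusted p 0.00323). Ndufa3 rose from 19.2, 21.5 and 21.4 to 29.8, 31.7 and 27.7 CPM, a difference of 0.51 (SE 0.0952, adjusted p 0.00953). Ndufb6, another membrane-arm subunit, rose from 20.1, 20.1 and 21.1 to 28.3, 29.1 and 27.9 CPM, a difference of 0.47 (SE 0.0840, adjusted p 0.00803). Ndufc2, Ndufb2, Ndufb7, Ndufv3, Ndufb5 and Ndufb11 were the other called genes of complex I, with differences of 0.27 to 0.43. None of the groups of these 9 genes overlapped between the genotypes.

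In complex IV, Cox6c rose from 56.1, 58.2 and 64.8 to 86.4, 82.2 and 77.7 CPM, a log2 difference of 0.46 (SE 0.0818, adjusted p 0.00766). Cox7c and Cox6a1, 2 further small subunits of the enzyme, rose by 0.34 (adjusted p 0.0190) and 0.32 (adjusted p 0.0353). In complex III, Uqcrh, the hinge protein that binds cytochrome c1, rose from 63.8, 72.0 and 70.4 to 88.4, 85.8 and 88.4 CPM, a difference of 0.35 (SE 0.0737, adjusted p 0.0174). In complex V, Atp5j2, a membrane subunit of ATP synthase, rose from 44.7, 52.1 and 47.9 to 64.5, 59.9 and 58.9 CPM, a difference of 0.34 (SE 0.0836, adjusted p 0.0327). Uqcrq of complex III had a difference of 0.44 at an adjusted p of 0.0529 and was not called.

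A list of 18 core subunits held mainly genes of the catalytic sites and redox centres, the 4 genes of complex II, and Cox5a and Cox5b. In the pituitary 0 of the 18 were called by limma, with a median of 0.15 and a range from -0.00306 to 0.28. Over all genes 6.36% were higher and 3.50% lower, so 0 calls in a list of 18 is near that share. Of the other 64 members 14 were called, with a median of 0.20. The ranges overlapped, and the difference between the lists was not tested. Pituitary medians also fell with transcript length: 0.23 for members under 1000 bases, 0.17 for those of 1000 to 2000 and 0.12 for those of 2000 to 3000. Most of the core list has transcripts of 1000 bases or more, and the part of length was not tested. Sdha, the flavoprotein of complex II, read 290, 265 and 279 CPM in WT and 303, 299 and 305 CPM in K146Q mice (0.12, SE 0.0647, adjusted p 0.286). Atp5b read 396, 393 and 392.2 CPM in WT and 459, 429 and 448 CPM in K146Q mice (0.18, SE 0.0631, adjusted p 0.113). In both genes the K146Q values lay above the WT values without passing the test. Cox4i2, Cox6b2 and Cox7a1, all near or under 2 CPM here, had negative differences of -0.13, -0.40 and -0.27 that did not pass the test.

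**Figure D2:**
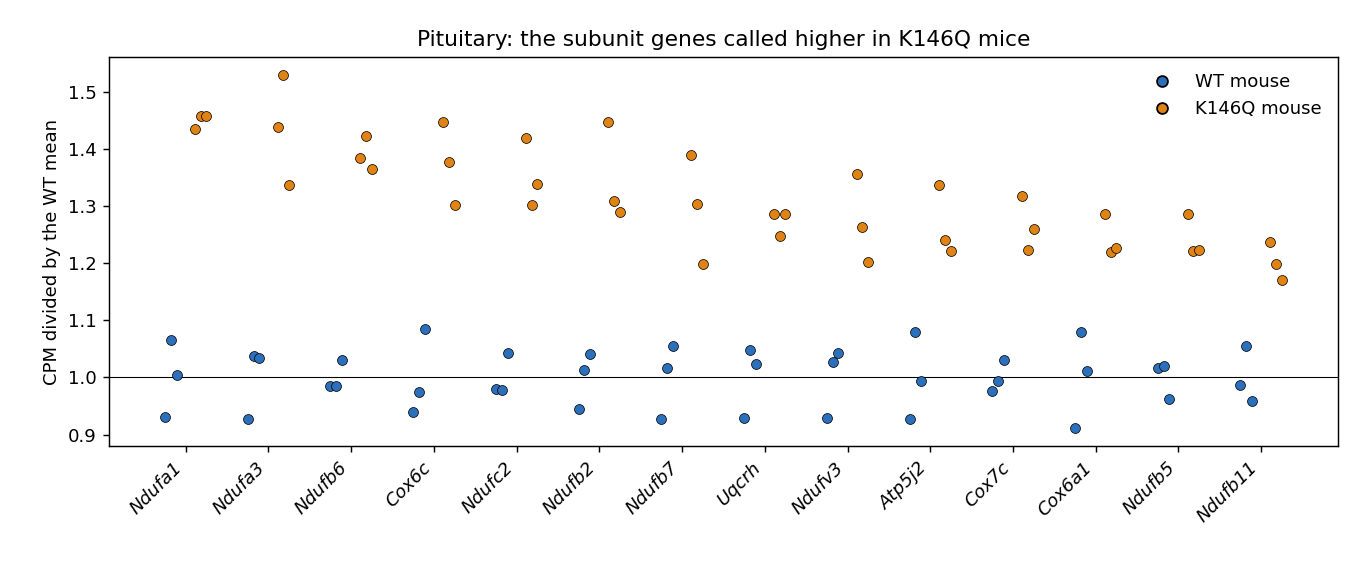
CPM of the 14 members called higher in the pituitary of K146Q mice, each value divided by the mean of the 3 WT mice of that gene; each point is 1 mouse, and the line marks the WT mean. The K146Q points lie above the WT points for every gene, with Ndufa1 at 51.5 to 52.4 CPM against 33.4 to 38.3 CPM.

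The pituitary calls depended on single mice and on the scale. Without K146Q mouse 60 there were 3 (Ndufa1, Ndufb6 and Ndufc2), without K146Q mouse 62 there were 3 (Cox6c, Ndufa1 and Ndufc2), without K146Q mouse 83 there were 9, without WT mouse 1 there were 8, without WT mouse 43 there were 10 and without WT mouse 2 there were 14, of which 12 were shared with the full data. Ndufa1 and Ndufc2 were called in each of these fits. Calls over all genes fell as well: 442 of 15431 genes were higher without mouse 60 and 518 of 15436 without mouse 62. In the full data 991 of 15589 were higher, and in the other fits 713 to 924. The 3 members called without mouse 60 or 62 are thus near the share over all genes. The median member difference was 0.18 and 0.19 in these 2 fits. With totals taken without the 10 highest genes, 8 members stayed among the calls and the median difference was 0.13 against -0.06 over all genes, and of the genes called in either direction 48.7% were then higher, compared with 64.5% on the deposited scale. Those 10 genes, led by Gh, took 18.5 to 29.4% of the reads in WT and 17.4 to 19.0% in K146Q mice, and none of them was a member. Short transcripts as a class also had positive differences: the median of 1021 genes under 1000 bases was 0.11, and that of the 52 members among them 0.23, compared with -0.04 over 6188 genes of 3000 bases or more.

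Sums of marker lists also differed in the pituitary. Summed neuron markers were 531 to 592 CPM in WT and 767 to 834 CPM in K146Q mice, with 2 of 4 higher and 1 lower. Most of that sum was Snap25 (means of 281 CPM in WT and 334 CPM in K146Q mice) and Syt1 (216 and 425 CPM). Rbfox3 read 7.74 to 9.44 CPM in WT and 9.18 to 11.3 CPM in K146Q mice. Leukocyte markers summed to 37.0 to 43.6 and 61.7 to 94.1 CPM, with 2 of 3 tested higher, and endothelial markers to 209 to 221 and 238 to 243 CPM, with 1 of 4 higher. Of the pituitary hormone genes, 2 of 7 were higher and 1 lower, and their sum was 133605 to 256980 CPM in WT against 109975 to 119830 CPM in K146Q mice. Most of that sum was Gh, with means of 145434 and 70690 CPM, which was not called. The higher genes were Tshb, with means of 456 CPM in WT and 6983 CPM in K146Q mice, and Cga, with 3501 and 18765 CPM. The lower gene was Prl, with 24873 and 7805 CPM. The paper reports a larger share of cells stained for TSH in the K146Q pituitary. The parathyroid list summed to 11.1 to 13.3 CPM in WT and 48.1 to 104 CPM in K146Q pituitary, with 1 of 2 tested higher. That rise was Casr alone, with means of 10.7 CPM in WT and 71.3 CPM in K146Q mice. Pth had means of 1.75 and 1.44 CPM, and Gcm2 was near 0. Astrocyte markers summed to 35.7 to 38.1 and 29.5 to 30.4 CPM, with 1 of 3 lower. Oligodendrocyte markers summed to 57.4 to 91.0 CPM in WT and 48.1 to 60.8 CPM in K146Q mice, and brown fat markers to 21.2 to 32.6 and 17.4 to 24.7 CPM, without a call. Nearly all of the brown fat sum was Cidea, with means of 25.8 and 20.7 CPM. The part of these lists in the differences of the members was not tested, and in bulk tissue fewer cells of a type and less RNA per cell cannot be told apart.

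In the thyroid, most members called were lower in K146Q mice. Of 84 members tested, 31 were lower and 5 higher in K146Q mice (36.9% and 5.95%), whereas 18.1% of 15200 genes were lower and 19.7% higher. The median difference was -0.25 against -0.03 over all genes, with 69 negative and 15 positive members. K146Q values lay below all WT values for 37 members (25.7% of all genes did) and above them for 6 (26.6% of all genes). Every subunit gene of complex II was lower (4 of 4), as were 6 of 9 in complex III, cytochrome c, 10 of 36 in complex I, 6 of 17 tested in complex IV and 4 of 17 in complex V. The higher members were 3 genes of complex I and 2 of complex IV, and Cox7b2 and Cox8c were under the filter. Summed over all members, K146Q thyroid held 9695, 8872 and 7793 CPM, each below the lowest WT sum. Before the normalization factors the genotypes overlapped: the members' share of reads was 0.797 to 0.865% in WT and 0.687 to 0.921% in K146Q mice, with mouse 60 the highest of all.

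Complex II, which is shared between the respiratory chain and the citric acid cycle, was lower in all its parts. Sdha fell from 394, 419 and 377 CPM in WT to 234, 238 and 219 CPM in K146Q mice. No value overlapped, and the log2 difference was -0.78 (SE 0.0856, adjusted p 0.000508). Sdhc and Sdhd, the membrane anchors, fell by 0.54 and 0.47, and the iron-sulfur protein Sdhb fell from 102, 102 and 106 to 84.1, 71.6 and 63.8 CPM, a difference of -0.51 (SE 0.106, adjusted p 0.00817). In complex I the largest fall was that of Ndufs1, the largest iron-sulfur subunit of the arm that oxidises NADH, from 105, 107 and 105 to 62.8, 55.8 and 56.7 CPM (-0.86, SE 0.0762, adjusted p 0.000221). Ndufv1, which holds the NADH site, fell from 133, 136 and 130 to 99.1, 90.1 and 78.8 CPM (-0.58, SE 0.0957, adjusted p 0.00305).

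In complex III, all 9 differences were negative and 6 of them were called. Uqcrfs1, the Rieske iron-sulfur protein, fell from 122, 127 and 134 to 91.9, 90.5 and 79.0 CPM (-0.55, SE 0.0869, adjusted p 0.00241). Cyc1, or cytochrome c1, fell from 142, 138 and 145.8 to 111, 107 and 95.3 CPM (-0.44, SE 0.0827, adjusted p 0.00516). Cycs, the soluble carrier to complex IV, fell from 140, 126 and 152 to 113, 91.3 and 94.1 CPM (-0.49, SE 0.111, adjusted p 0.0113). Without K146Q mouse 62 the Cycs difference was -0.43 and was no longer called. In complex V, Atp5b fell from 971, 1051 and 1052 to 718, 703 and 657 CPM (-0.56, SE 0.112, adjusted p 0.00668), and Atp5a1, the alpha subunit beside it, fell by 0.49 (adjusted p 0.0133). Cox5a, a subunit of complex IV found in all tissues, fell from 121, 128 and 130 to 99.9, 87.6 and 85.5 CPM (-0.47, SE 0.0852, adjusted p 0.00441). In none of these genes did the genotypes overlap. Further lower members were Ndufa9, Ndufa10, Ndufab1, Ndufb6, Ndufb9, Ndufv2 and Ndufv3 in complex I (-0.48 to -0.29), Uqcrc1, Uqcrc2, Uqcr10 and Uqcrq in complex III (-0.42 to -0.38), Cox7b in complex IV (-0.34), and Atp5c1 and Atp5f1 in complex V (-0.38 and -0.37). Of these, Uqcrq alone had overlapping values, and Ndufa10, Ndufv2 and Uqcrc2 were called with each mouse left out in turn.

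Of the 18 core subunits, 15 were lower and 0 higher in the thyroid by limma, with a median of -0.48, whereas 16 of the other 66 members were lower and 5 higher, with a median of -0.17. Over all genes, 18.1% were lower and 19.7% higher. Members also differed by transcript length: the median was -0.17 for 54 under 1000 bases and -0.40 for 21 of 1000 to 2000 bases. For 7 members of 2000 to 3000 bases it was -0.48. Over all genes these medians were 0.04, 0.05 and -0.00088. Most of the core list has transcripts of 1000 bases or more, and the part of length in the contrast of the lists was not tested. The 3 genes of this list that were not called were Cox5b (-0.37), Ndufs7 (-0.23) and Ndufs8 (0.01). Ndufs3, a core subunit of complex I that the list leaves out, was not called either (0.03). The 3 genes of the c-ring of ATP synthase, which turns in the membrane, were not called, with differences of -0.24 for Atp5g1, -0.04 for Atp5g2 and -0.26 for Atp5g3.

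The 5 members that were higher did not include a gene of the core list. Ndufc2, an accessory subunit of the complex I membrane arm, rose from 90.5, 82.1 and 99.1 CPM in WT to 172, 174 and 137 CPM in K146Q thyroid (0.82, SE 0.117, adjusted p 0.00158). Ndufb8 rose from 227, 226 and 233 to 397, 393 and 316 CPM (0.68, SE 0.108, adjusted p 0.00246). These values did not overlap, and Ndufc2 was the single member higher in both pituitary and thyroid. Ndufa12 rose by 0.38 (adjusted p 0.0377), a call that was kept only without K146Q mouse 83 among the fits that leave out a mouse, and lost without a variance trend and with totals taken without the 10 highest genes. Cox7a2, the widely expressed form of its subunit, rose from 104, 99.7 and 106 to 149, 138 and 115 CPM (0.37, SE 0.106, adjusted p 0.0283). Cox4i2, a form of the Cox4 subunit known from lung, rose from 1.45, 1.52 and 2.29 to 3.37, 3.64 and 2.64 CPM (0.73, SE 0.212, adjusted p 0.0298), on 23 to 68 reads. The Cox7a2 call was lost without WT mouse 1, 2 or 43 and without K146Q mouse 60 or 62, with differences of 0.29 to 0.48 over the leave-one-out fits. The Cox4i2 call was lost without WT mouse 1 or 2 and without K146Q mouse 60 or 62, with 0.64 to 0.90.

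The largest falls in the thyroid were in the tissue forms of complex IV. Cox8b fell from 35.4, 33.03 and 31.6 CPM in WT to 10.2, 4.11 and 2.70 CPM in K146Q mice (-2.65, SE 0.387, adjusted p 0.00176). Cox6a2 fell from 28.9, 43.1 and 51.8 to 21.7, 6.64 and 7.33 CPM (-1.92, SE 0.429, adjusted p 0.0108). Cox7a1 fell from 13.3, 18.03 and 14.9 to 7.38, 4.05 and 2.34 CPM (-1.76, SE 0.341, adjusted p 0.00602). K146Q mouse 60 had the highest K146Q value in each of these genes, still below the WT values, and the calls were kept in all 6 leave-one-out fits. Their widely expressed partners had smaller differences. Cox8a fell by 0.30 (adjusted p 0.0393), a call kept only without mouse 60 among the fits that leave out a mouse, and Cox6a1 read 219, 199.5 and 227 CPM in WT and 231, 207 and 171 CPM in K146Q mice (-0.09, adjusted p 0.579). Cox4i1 read 303, 273 and 317 CPM in WT and 383, 364 and 308 CPM in K146Q mice (0.24, adjusted p 0.136).

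The ratio of a tissue form to its partner within a library depends little on how that library was scaled. In the thyroid the ratio, as a difference of log2(CPM + 0.5), of Cox8b to Cox8a was -2.89 ± 0.114 in WT and -5.24 ± 0.771 in K146Q mice (SD, n = 3), a difference of -2.35. That of Cox7a1 to Cox7a2 was -2.71 ± 0.248 and -4.84 ± 0.551, a difference of -2.12, and that of Cox6a2 to Cox6a1 -2.41 ± 0.430 and -4.23 ± 0.764, a difference of -1.83. The ratio of Cox4i2 to Cox4i1 was -7.07 ± 0.225 and -6.57 ± 0.0958, a difference of 0.50. In all 4 pairs the genotypes did not overlap, and the exact two-sided permutation test of 3 against 3 mice gave p = 0.1, the smallest value it allows. In pituitary and hypothalamus the same 4 ratios differed by -0.51 to 0.24 and gave exact permutation p-values of 0.2 to 0.5, with Cox8b at or near the level of 3 reads in both tissues and Cox6a2 so in pituitary.

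Sums of marker lists also differed in the thyroid, and those of fat were lower in K146Q mice. Brown fat markers summed to 241, 176 and 75.6 CPM in WT mice 1, 2 and 43 and to 12.7, 13.9 and 1.52 CPM in K146Q mice 60, 62 and 83, with 3 of 4 lower. Among them Ucp1, the uncoupling protein of brown fat, stood at 171, 120 and 29.2 CPM in WT and at 7.38, 8.58 and 0.293 CPM in K146Q mice, and Elovl3 was at 0 in K146Q mice 62 and 83. Adipocyte markers summed to 401, 516 and 766 CPM in WT and 320, 133 and 176 CPM in K146Q mice, with 4 of 5 lower. Skeletal muscle markers summed to 385, 4745 and 7062 CPM in WT and to 4106, 990 and 843 CPM in K146Q mice, so the genotypes overlapped and 0 of 8 were called by limma. WT mouse 1 had the lowest muscle and adipocyte sums and the highest brown fat sum of the WT mice. Its Cox8b value was the highest and its Cox6a2 and Cox7a1 values were the lowest among them. Among the K146Q mice, mouse 60 had the highest muscle and adipocyte sums and the highest Cox8b, Cox6a2 and Cox7a1 values. The highest brown fat sum among the K146Q mice was that of mouse 62. Follicular cell markers summed to 295626 to 359158 CPM in WT and 86195 to 132879 CPM in K146Q mice, with 3 of 7 higher and 2 lower. Most of that sum was Tg, the thyroglobulin gene. It read 349907, 357296 and 293439 CPM in WT and 83869, 96214 and 130421 CPM in K146Q mice, without overlap. Tg was not called by limma (-1.71, SE 5.14, adjusted p 0.820). That SE, moderated by a variance trend over all genes, is out of proportion to the spread of the values. Their SD was 34931 CPM around 333547 in WT and 24116 CPM around 103501 in K146Q mice. The missing call is thus no sign that Tg was unchanged, and the paper reports Tg as significantly lower. Parathyroid markers summed to 3454 to 6409 and 523 to 1569 CPM, with 3 of 3 lower, endothelial markers to 504 to 601 and 657 to 745 CPM, with 2 of 4 higher, and leukocyte markers to 75.4 to 101 and 182 to 191 CPM, with 3 of 4 higher. C cell markers summed to 2070 to 2591 CPM in WT and 166 to 312 CPM in K146Q thyroid, with 1 of 2 higher and 1 lower. The part of these cells in the differences of the members was not tested.

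**Figure D3:**
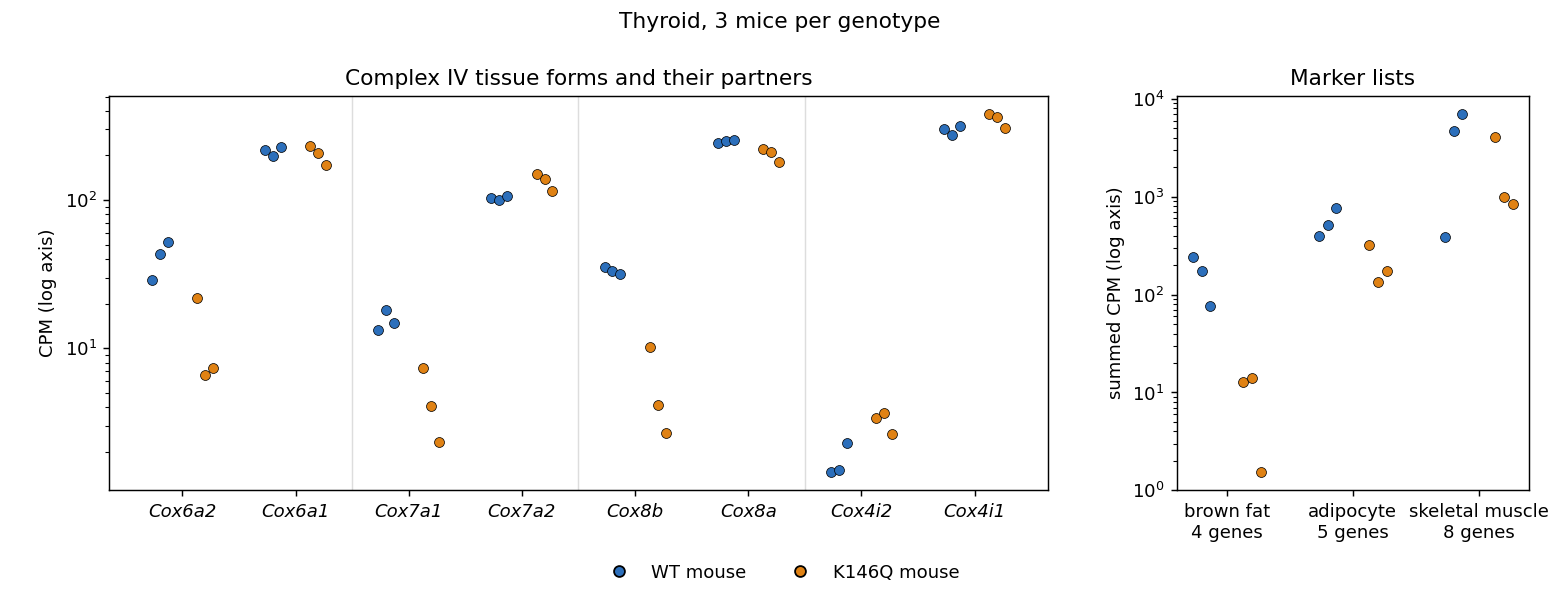
Left, CPM on a log axis in thyroid for 3 tissue forms of complex IV (Cox6a2, Cox7a1, Cox8b), for Cox4i2, and for the widely expressed partner of each; right, summed CPM of the marker lists of brown fat, adipocytes and skeletal muscle on a log axis. Each point is 1 mouse, in the order 1, 2, 43 for WT and 60, 62, 83 for K146Q. Cox8b lies at 31.6 to 35.4 CPM in WT and at 2.70 to 10.2 CPM in K146Q mice. The brown fat and adipocyte sums are lower in K146Q mice without overlap, and the muscle sums overlap between the genotypes.

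The thyroid values varied with single mice. Without K146Q mouse 83 the median member difference was -0.15, and without K146Q mouse 60 it was -0.33. Without K146Q mouse 62, 18 members were lower, without K146Q mouse 60, 38, and without any 1 of the other 4 mice, 23. Higher members numbered 2 without WT mouse 1 or 2 and without K146Q mouse 60 or 62, 3 without WT mouse 43 and 7 without K146Q mouse 83. Over all genes, 1665 of 15000 were lower without mouse 62 and 2194 of 14951 without mouse 60, compared with 2747 of 15200 in the full data. Higher genes numbered 1937 to 2667 in the 6 fits. Members called as in the full data in all 6 of these fits included Sdha, Sdhb, Sdhc, Sdhd, Ndufs1, Ndufv1, Uqcrfs1, Atp5b, Cox8b, Cox6a2 and Cox7a1. With totals taken without the 10 highest genes, 41 members were lower and 3 higher, and 40.9% of all genes called were then higher compared with 52.1% on the deposited scale. Those 10 genes, led by Tg, took 27.8 to 32.5% of the reads in WT and 12.2 to 18.3% in K146Q mice.

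**Figure D4:**
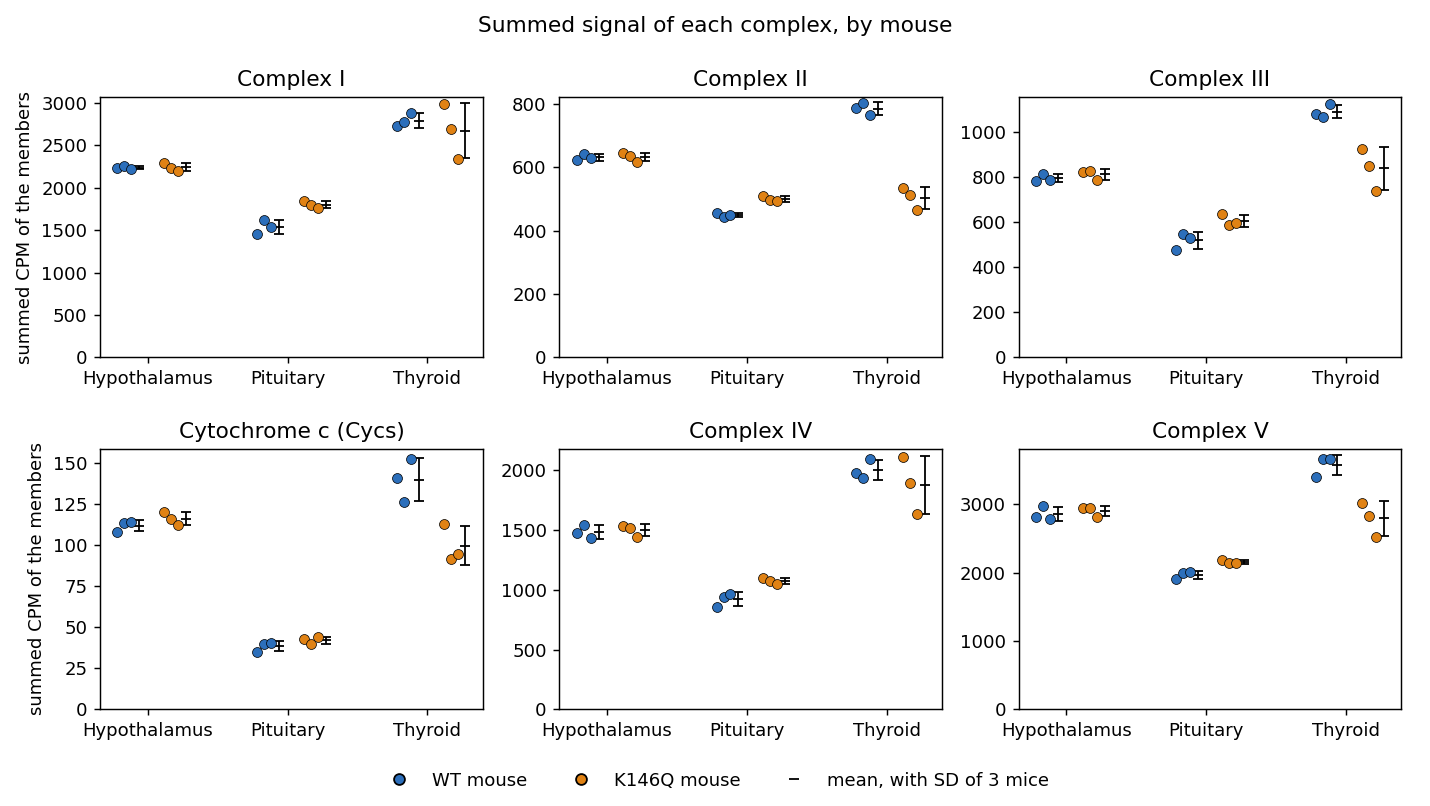
Summed CPM of the members of each complex in the 3 tissues, with 1 point per mouse, WT beside K146Q, and the mean with its SD (n = 3). Complex II fell from 765 to 805 CPM in WT thyroid to 465 to 534 CPM in K146Q thyroid, while the sums of complex I and complex IV overlapped there, and in pituitary the K146Q sums of complexes I to V lie above the WT sums.

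Genes that serve the respiratory chain were counted from lists beside the members, to be read against the 18.1% lower and 19.7% higher of all genes in thyroid and the 6.36% higher in pituitary. In the thyroid, 13 of 16 genes of the citric acid cycle and pyruvate dehydrogenase were lower and 1 higher, with a median of -0.69: Sucla2, of succinyl-CoA ligase, fell by 1.196 on the log2 scale, and Cs, the citrate synthase, by 0.58, whereas the fumarase Fh1 rose by 0.86. Of 14 genes of fatty acid oxidation, 11 were lower and 0 higher by limma, with a median of -0.81, among them Cpt1b, the muscle form of the carnitine transferase, at -2.75, and Cpt1a at -0.65. Of 44 assembly factors, 11 were lower and 1 higher, with a median of -0.16, among them the copper chaperone Sco1 at -1.09. Of 15 regulators of mitochondrial biogenesis, 8 were lower and 2 higher, with a median of -0.34: the coactivators Ppargc1a and Ppargc1b differed by -0.88 and -1.90, the nuclear receptors Esrrg and Ppara by -2.09 and -2.05, and Pprc1 by 0.59. Of 17 glycolysis genes, 5 were lower and 1 higher (median -0.13), of 8 carriers and uncoupling proteins 3 were lower (median -0.23), and of 77 mitochondrial ribosome genes 2 were lower and 1 higher (median -0.02). These medians stand beside -0.03 over all genes.

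In the pituitary fewer genes of these lists were called. Of 17 glycolysis genes 5 were higher (median 0.18), led by the neuronal enolase Eno2 at 0.67. Of 77 mitochondrial ribosome genes 1 was higher (Mrps14, 0.56; median 0.08), of 16 genes of the citric acid cycle and pyruvate dehydrogenase 1 was higher (Sucla2, 0.26; median 0.07), and of 6 carriers 1 was higher (Usmg5, a small protein of ATP synthase, 0.54). Among 15 regulators 1 was lower (Ppard, -0.53), and by limma 0 of 43 assembly factors (median 0.08) and 0 of 14 genes of fatty acid oxidation (median 0.03) were called. In the hypothalamus limma called 0 genes in each of these lists.

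The genotype difference itself was compared between tissues in the fit of all 18 libraries, where the 3 differences share their libraries pairwise. Between thyroid and pituitary, 56 of 84 members had a lower and 4 a higher difference in thyroid, beside 17.4% and 16.4% of all genes. The median was -0.47 against -0.02 over all genes, and the lower members included 4 of 4 in complex II, 9 of 9 in complex III, Cycs, 22 of 36 in complex I, 10 of 17 in complex IV and 10 of 17 in complex V. For Ndufs1 the difference between thyroid and pituitary was -0.98 (SE 0.0839, adjusted p 2.06e-07) and for Sdha -0.90 (SE 0.0793, adjusted p 2.71e-07). Between thyroid and hypothalamus, 32 members had a lower and 5 a higher difference in thyroid, beside 15.2% and 15.6% of all genes. Between pituitary and hypothalamus, 3 had a higher difference in pituitary and 0 a lower one by limma, beside 2.29% and 0.945% of all genes; at an unadjusted p under 0.05, 0 members were lower beside 6.21% of all genes, and edgeR and DESeq2 called 0 lower. These 3 were Ndufa1, Ndufa3 and Ndufb6, and the count was 0 when any 1 of mice 1, 2, 43, 60 or 62 was left out. Over all genes, 179 to 320 had a higher difference in those fits, compared with 393 in the full data.

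Read gene by gene over the 82 members tested in both tissues, 65 had a positive difference in pituitary and a negative one in thyroid. Of the 14 called higher in pituitary, Ndufb6 and Ndufv3 were called lower in thyroid, Ndufc2 was called higher and 11 were not called. Of the members called lower in thyroid and tested in both tissues, 27 were not called in pituitary, and 37 members were called in neither tissue.

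**Figure D5:**
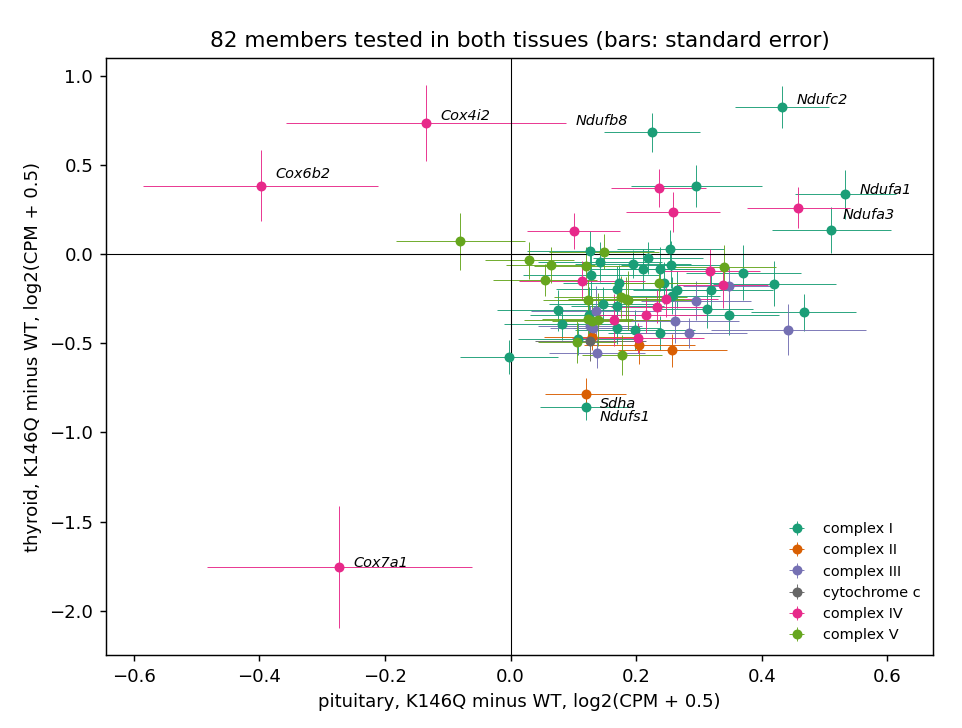
Difference between K146Q and WT mice in pituitary (horizontal) and thyroid (vertical), as log2(CPM + 0.5), for the 82 members tested in both tissues; each point is 1 gene coloured by complex, and bars are standard errors. Most points lie to the right of 0 and below 0, with Ndufc2 above 0 on both axes and Cox7a1 below 0 on both.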

How the data were processed

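Total RNA of hypothalamus, pituitary and thyroid was sequenced, and the submitters' processing notes name bcl2fastq 2.17, Bowtie2 2.1.0, RSEM 1.2.15 and the build mm10. The authors deposited a normalized signal per gene and mouse, CPM, that is a count per library size after a factor per library. The program that made it is not given in the sources used here. All 144324 values of each tissue were whole multiples of 1 read within 0.1, and the recovered factors of the 18 libraries multiply to 1, from which a joint normalization was inferred. Fold changes, average levels, test statistics, p-values and false discovery rates of the authors' own comparisons stand beside these values and were not used. No sample column went unused.

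Genes with at least 0.5 CPM in 3 libraries were tested with limma 3.58.1 (R 4.3.3) on log2(CPM + 0.5) with a variance trend, all p-values two-sided and Benjamini-Hochberg adjusted over all genes tested, and called at 0.05. Differences on this scale understate the change of low genes. Each tissue was fitted on its 6 libraries. Differences between tissues came from 1 fit of 18 libraries with 6 group means over 17140 genes, without 27 symbols that could not be matched between the tables. Alternatives were pseudocounts of 0.1 and 1, dropping the filter or asking for 1 CPM or more throughout, scaling by median of ratios, by quantiles or without the 10 highest genes, no trend, edgeR 4.0.16 and DESeq2 1.42.0 on recovered reads, leaving out each mouse, and mouse as a block. Isoform ratios were compared by exact permutation. Figures were drawn with Python 3.11.15 and matplotlib 3.10.9.

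Libraries held 14902330 to 21230050 reads, and the level of 3 reads reflects counting only. SEs and SDs are taken over mice and include the variation between them. Replicates of a group are separate mice and differed beyond sampling noise. The series' design gives 3 mice of each genotype and the same mouse numbers recur in each tissue, from which the numbers were taken to mark the same animals. Deviations of 1 mouse from its group means correlated between tissues at -0.0270 to 0.174.

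The members and lists were chosen with earlier results of these data known. The text names tissue forms and their partners, core subunits, the 2 largest rises and 2 largest falls per tissue and complex among called members without overlap and with a mean of at least 1 CPM, the 3 members of smallest p where fewer than 3 were called, the 3 largest differences between tissues in each direction, and members under the filter. Names outside this rule were chosen after their values were seen. Single values of some genes are not reported here. On simulated counts, limma recovered 87% of 100 genes changed by 1 on the log2 scale and 98% of 100 changed by 2 in the pituitary comparison (15458 genes), with 11.1% of its calls false. In the thyroid comparison (15056 genes) these values were 64%, 85% and 7.45%. Changes under 1 on the log2 scale, the size of most differences of the members, were not simulated, so these recovery rates do not apply to them.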

Additional observations from a re-analysis of the deposited data

Results flagged for a closer look

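The genotype difference, K146Q minus WT on the log2 scale, itself differed between tissues for the members listed here, by the interaction term of the limma fit of 18 libraries (adjusted p under 0.05, 3 mice per group). All are chosen as the largest in each direction.

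Between thyroid and hypothalamus, the difference in thyroid was lower for the tissue forms of complex IV: Cox8b at -2.93 (SE 0.437, adjusted p 8.61e-05), Cox6a2 at -1.85 (SE 0.450, adjusted p 0.00488) and Cox7a1 at -1.58 (SE 0.377, adjusted p 0.00421). It was higher for Ndufc2 at 0.79 (SE 0.119, adjusted p 9.21e-05), Ndufb8 at 0.64 (SE 0.103, adjusted p 0.000159) and Cox4i2 at 0.92 (SE 0.312, adjusted p 0.0338). All but Cox4i2 passed the test with each mouse left out in turn. Cox4i2 did not without mouse 1, 2, 60 or 83, with values of 0.73 to 1.22, nor with edgeR, DESeq2 or totals taken without the 10 highest genes.

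Between thyroid and pituitary, the values were -2.57 for Cox8b (SE 0.437, adjusted p 0.000250), -1.99 for Cox6a2 (SE 0.450, adjusted p 0.00260) and -1.48 for Cox7a1 (SE 0.377, adjusted p 0.00595). With edgeR none of these 3 passed, and with DESeq2 only Cox8b did. Cox8b and Cox6a2 lie at or near the level of 3 reads in pituitary. Higher values were those of Cox4i2 at 0.87 (SE 0.312, adjusted p 0.0412), Cox6b2 at 0.78 (SE 0.223, adjusted p 0.0123) and Ndufb8 at 0.46 (SE 0.103, adjusted p 0.00246). Cox4i2 was lost without mouse 1, 2, 60 or 83 (0.65 to 1.11) and under 5 other settings (edgeR, DESeq2, no filter, a pseudocount of 0.1 and totals without the 10 highest genes), and Cox6b2 without mouse 1, 2 or 60 (0.62 to 0.999), while Ndufb8 passed without any 1 mouse but not under quantile normalization.

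Between pituitary and hypothalamus, the values were 0.58 for Ndufa1 (SE 0.148, adjusted p 0.0413), 0.53 for Ndufa3 (SE 0.140, adjusted p 0.049995) and 0.43 for Ndufb6 (SE 0.105, adjusted p 0.0287). Ndufa1 and Ndufa3 passed only without mouse 83 among the 6 fits that leave out a mouse, and Ndufb6 in none of them, with values of 0.54 to 0.64, 0.44 to 0.60 and 0.42 to 0.45. Ndufa1 was also lost without a filter, without a variance trend, with edgeR and with totals taken without the 10 highest genes. Ndufa3 was lost under these 4 settings and with a pseudocount of 0.1, with at least 1 CPM asked for throughout and on the median-of-ratios scale, and Ndufb6 with the top-gene-free totals.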

How the results depend on the processing

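Counts of called members moved by over 1.5 times as follows, and the cause was not tested. With totals taken without the 10 highest genes, 8 members were higher in pituitary and 3 in thyroid, 0 higher in the pituitary minus hypothalamus and 2 in the thyroid minus hypothalamus genotype effect, 11 higher in WT pituitary than WT hypothalamus and 3 lower in WT thyroid than WT pituitary. Without a variance trend, 7 were higher in pituitary, 3 in thyroid and 1 in the pituitary minus hypothalamus effect. That effect gave 1 without a filter, 1 with edgeR and 5 with DESeq2. Quantile normalization gave 2 higher in the thyroid minus pituitary effect and 10 in WT pituitary over hypothalamus, and no filter gave 2 lower in WT thyroid against pituitary. Leaving out 1 mouse gave 3 to 14 higher in pituitary, 2 to 7 higher and 18 to 38 lower in thyroid, 0 to 3 higher in the pituitary minus hypothalamus effect, 3 to 5 higher and 22 to 38 lower in the thyroid minus hypothalamus effect, and 1 to 4 higher and 41 to 62 lower in the thyroid minus pituitary effect. In WT levels it gave 46 to 61 higher and 3 to 4 lower in thyroid than hypothalamus. Of the calls between tissues, the share that was higher changed under the same top-gene-free totals from 70.8% to 59.1% for pituitary minus hypothalamus and from 50.7% to 39.0% for thyroid minus hypothalamus. Signs turned for members near 0 and without a call: in pituitary Atp5a1 (-0.0401, quantile), Atp5g2 (-0.0263, top-gene-free totals), Ndufv1 in pituitary (0.00411 with edgeR, 0.000229 with DESeq2, -0.0542 to 0.0462 leaving out a mouse) and Cox4i2 (-0.313 to 0.0164), in thyroid Ndufs8 (-0.0809 with top-gene-free totals, -0.0897 to 0.123), Atp5g2 (-0.117 to 0.0551) and Cox6a1 (-0.191 to 0.0229). Of 591 recomputed values of 37 pituitary members 558 kept direction and side of the threshold, as did 516 of 560 for 35 thyroid members. Mouse was also fitted as a replicate block, with 1 correlation shared by all genes and no term per mouse. The genotype effects then gave 3 higher and 0 lower (pituitary minus hypothalamus), 5 and 35 (thyroid minus hypothalamus) and 4 and 58 (thyroid minus pituitary). The WT levels gave 6 and 64, 59 and 4, and 78 and 1, so no count moved by over 1.5 times.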
